A study of Gallus gallus with 6 samples.

Results

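Of 3836 named chicken genes with a measurable signal, 55 were detected on every array of wild-type DT40 cells and on no array of IRF4 knockout cells. Detected means that the scanner software called the spot well above background. The genes were chosen by these detection calls on the 6 arrays, with each gene represented by its brightest probe. CD38 and genes whose symbols start with KCN, SLC, ANO, PKD or DNM were left out (ANO5, CD38, DNM1, KCNK7, PKD2 and SLC22A23), which leaves the 49 genes described here. The array carries probes for 4932 genes that could be named.

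The samples were 3 cultures of untreated IRF4-deficient DT40 cells and 3 cultures of untreated DT40 cells with wild-type IRF4, each on its own one-colour array. DT40 is a B cell line from a chicken bursal lymphoma. The cultures were independent per the labels, but how many knockout clones they came from is not stated in the sources. Errors and p-values therefore cover the spread between these cultures and may not cover the spread between clones.

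IRF4 belongs to the interferon regulatory factors, a family of transcription factors. It binds DNA weakly by itself and acts with partners such as the ETS factor PU.1 and the AP-1 factor BATF. In B cells it is known for its part in class switching, in germinal centre entry and in the formation of plasma cells. Many of the 49 genes are better known from other tissues, such as liver, lens, muscle and brain, and the roles given below are those known from mammals unless birds are named. How common such genes or roles are among all tested named genes was not counted, so nothing is read from their numbers.

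The level on each array is the log2 processed signal minus that array's 75th percentile, so a level of 0 is the 75th percentile and levels below it are negative. The share of gene spots well above background ran between 62.4% and 68.2%, with the lowest share in wild type replicate 3, and no spot was saturated. Arrays of a group correlated at r between 0.9969 and 0.9976, and arrays of different groups between 0.9372 and 0.9383. Of 19802 features tested with limma, 39.9% were higher and 29.1% lower in the knockout at an adjusted p under 0.05, or 68.9% in all. All 10 B cell markers that could be tested, among them CD79B, PAX5, EBF1, BTK and SYK, were detected on all 6 arrays. Of these 10, 5 were higher and 1 lower in the knockout. The widest was CD72 at 3.20 ± 0.06 (SE, log2), and the lower one was TNFRSF13C at -0.60 ± 0.04. All 5 tested T and NK cell markers were detected on all 6 arrays as well, with 1 higher and 3 lower. The higher one was CD5 at 1.56 ± 0.06 (SE, log2), and the widest of the lower ones was CD3E at -3.44 ± 0.08. Of 5 tested myeloid and thrombocyte markers and of 5 erythroid markers, 1 was higher and 2 were lower in each list. In each list 4 were detected on all knockout arrays. The 3 tested fibroblast and endothelial markers were all called higher in the knockout, but only 1, COL1A2, was detected on all wild-type arrays. FLT1 and COL3A1, detected on 0 and 2 wild-type arrays, could be tested only through the knockout arrays, which favours this direction. The part of these markers in the results below was not tested.

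IRF4 itself was measured first as the check on the labels. Its brighter probe stood at -1.11, -1.36 and -1.12 in the knockout, against 3.18, 2.98 and 2.93 in wild type, a difference of -4.22 or 18.6-fold lower in the knockout. That probe was detected on all 6 arrays. The dimmer IRF4 probe was detected on the wild-type arrays alone, with -8.84, -8.65 and -8.62 in the knockout, against -3.15, -3.13 and -3.03 in wild type. IRF4 is therefore not among the 49 genes, because its brighter probe kept a measurable signal in the knockout.

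The 55 genes before the exclusions made up 1.43% of the tested named genes. The mirror pattern, detected on all 3 knockout and no wild-type arrays, held for 52 named genes or 1.36%. Among 15966 tested features with no gene name the same patterns held for 1.94% (310 in wild type alone) and 1.92% (306 in the knockout alone). The rule used the comparison of knockout with wild type, so nothing is read from these shares and no test was made on the 49 genes.

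A gene that is not above background in the knockout has no measured level there, and its difference is given as a bound. Each knockout array has a floor, the dimmest signal that any of its probes showed while still well above background. Where a probe lay under the floor, the floor took its place. The floor was -6.73, -6.56 and -6.50 on the knockout arrays. The wild-type mean over the mean of these values gives "at least N-fold lower". A bound cannot exceed the distance from the wild-type signal to the floor. A dim gene therefore has a small bound whatever its true difference. Bounds do not rank the genes, and their medians and counts by role below do not rank the roles. In bulk RNA, fewer cells that use a gene and less RNA in each cell cannot be told apart.

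The bounds ran from 1.65-fold to 117-fold, with a median of 5.55. They were 10 or more for 16 genes, from 4 to under 10 for 14, from 2 to under 4 for 16 and under 2 for 3. For all 49 genes the highest knockout array lay below the lowest wild-type array, a separation that the choice of genes largely fixes. The bounds depend on how the background is handled. With normexp, run on the median signal with an added offset of 50, the median bound was 2.45 and the range 1.27 to 32.5. With it 44 of the 49 bounds moved by over 1.5 times. The parts of the correction and of the offset were not separated.

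**Figure D1:**
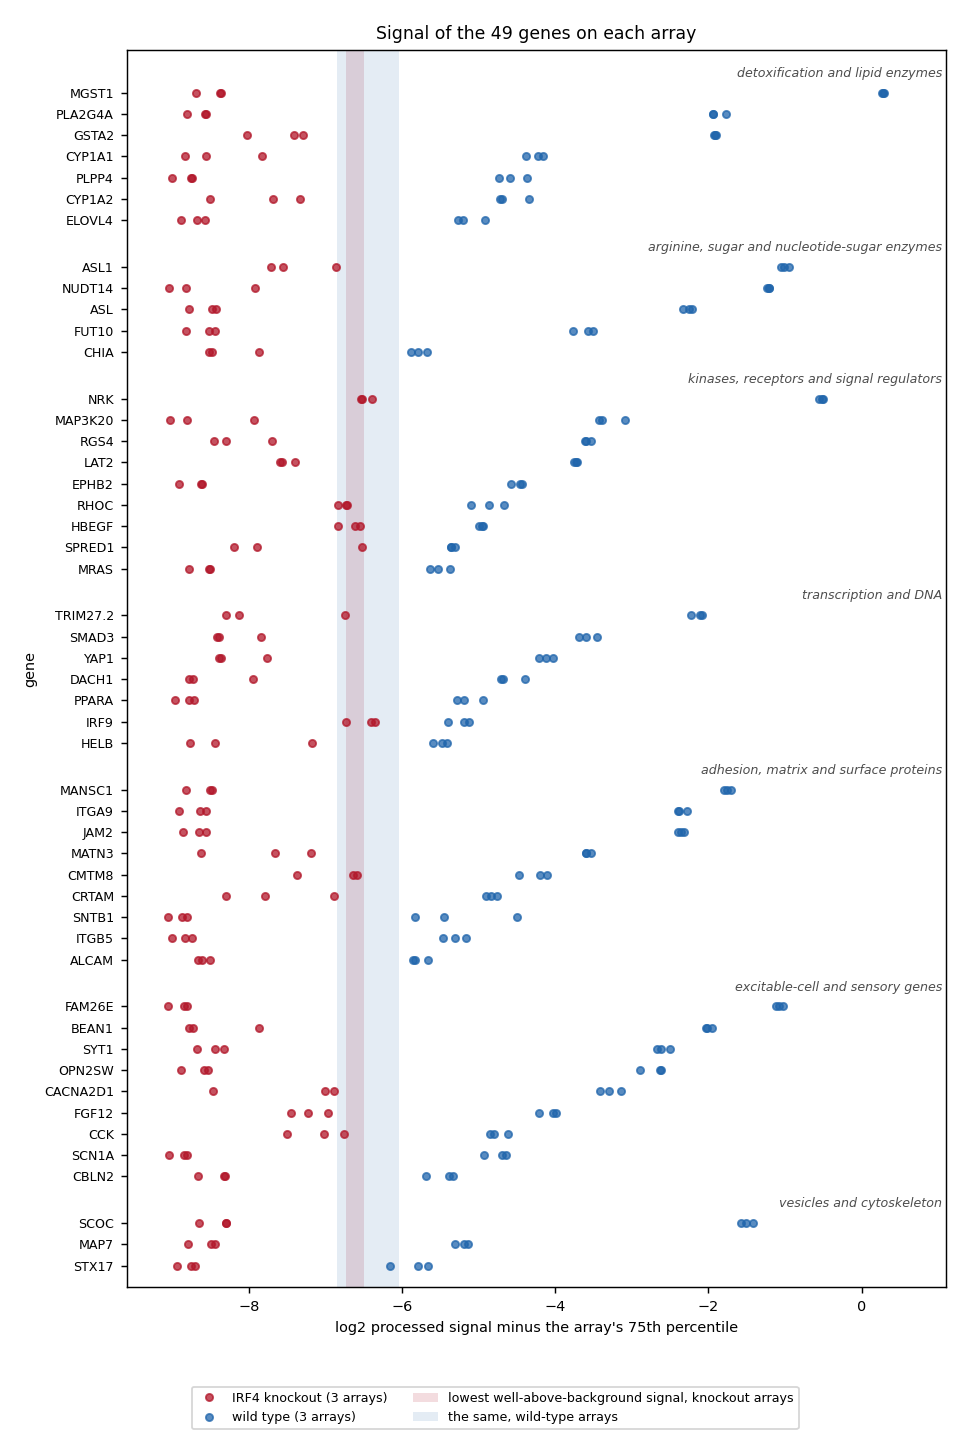
Signal of the 49 genes on each of the 6 arrays, as log2 processed signal minus the array's 75th percentile (horizontal axis), with 1 gene a line and knockout and wild-type arrays as points of different colour and each group's floors as a shaded band. Knockout points lie left of wild-type points in every line, from MGST1 with wild-type levels near 0.28 to STX17 with wild-type levels between -6.16 and -5.67.

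Enzymes of detoxification and lipid metabolism made up 7 of the genes, with a median bound of 5.05. MGST1, the membrane-bound microsomal glutathione transferase, stood at -8.70, -8.38 and -8.37 in the knockout, against 0.29, 0.28 and 0.27 in wild type, at least 117-fold lower in the knockout. The wild-type arrays were nearly identical and the knockout arrays were at background. GSTA2, a cytosolic glutathione transferase of the alpha class, stood at -7.41, -8.03 and -7.30 in the knockout, against -1.91, -1.93 and -1.90 in wild type, at least 25.7-fold lower.

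PLA2G4A, the cytosolic phospholipase that releases arachidonic acid from membranes, stood at -8.82, -8.58 and -8.57 in the knockout, against -1.77, -1.94 and -1.94 in wild type, at least 26.3-fold lower. Here too the knockout arrays were at background. CYP1A1 and CYP1A2, xenobiotic-oxidising cytochromes whose chicken forms are also called CYP1A4 and CYP1A5, were at least 5.05-fold and 4.01-fold lower in the knockout. PLPP4, a lipid phosphatase, and ELOVL4, which elongates very long fatty acids, had bounds of 4.08 and 2.76.

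Of the 5 genes grouped under enzymes of arginine, sugars and nucleotide sugars, 3 had bounds of 10 or more, and the median was 20.1. ASL1 and ASL belong to the argininosuccinate lyase family. In birds this family also supplies the delta-crystallins of the lens. Both carry crystallin synonyms, CRYD1 for ASL1 and CRYD2 for ASL, and whether ASL1 acts as an enzyme was not tested. ASL1 stood at -6.87, -7.72 and -7.56 in the knockout, against -1.01, -1.06 and -0.95 in wild type, at least 48.2-fold lower in the knockout. ASL stood at -8.79, -8.44 and -8.49 in the knockout, against -2.25, -2.33 and -2.22 in wild type, at least 20.1-fold lower. Both had tight wild-type arrays.

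ASL1 and ASL lie next to each other in the RefSeq gene order, with 0 genes between them, and so do CYP1A1 and CYP1A2. Each pair consists of close relatives, and whether their probes also bind the partner's RNA was not checked. NUDT14, a NUDIX hydrolase that cleaves UDP-sugars, stood at -9.04, -8.82 and -7.93 in the knockout, against -1.23, -1.21 and -1.20 in wild type, at least 41.6-fold lower. Knockout replicate 3 was the highest of its group. FUT10, of the fucosyltransferase family, and CHIA, the acidic chitinase, had bounds of 7.88 and 1.75.

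The kinases, receptors and signal regulators counted 9 genes, with a median bound of 4.31. NRK, a kinase of the germinal centre kinase family, stood at -6.52, -6.54 and -6.40 in the knockout, against -0.52, -0.55 and -0.50 in wild type, at least 62.4-fold lower. Its knockout signal lay just over the floor on all 3 arrays. The floor therefore replaced none of them, and 62.4 is the ratio of the probe's own signals. MAP3K20, a stress-activated kinase, stood at -9.04, -8.81 and -7.94 in the knockout, against -3.39, -3.43 and -3.09 in wild type, at least 9.78-fold lower.

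LAT2, an adaptor that links antigen receptors to downstream signalling in B cells and mast cells, stood at -7.60, -7.40 and -7.57 in the knockout, against -3.73, -3.72 and -3.76 in wild type, at least 7.24-fold lower. The arrays of each group lay close together. RGS4, which speeds GTP hydrolysis by G protein alpha subunits, had a bound of 8.06, and EPHB2, a receptor tyrosine kinase for ephrins, a bound of 4.31. The small GTPases RHOC and MRAS had bounds of 3.29 and 2.11. HBEGF, a ligand of the EGF receptor, and SPRED1, an inhibitor of Ras signalling, had bounds of 3.08 and 2.38.

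Transcription and DNA metabolism supplied 7 genes, with a median bound of 3.99. TRIM27.2, a tripartite motif gene, stood at -8.31, -8.14 and -6.74 in the knockout, against -2.09, -2.11 and -2.23 in wild type, at least 21.9-fold lower. Of the knockout arrays, replicate 3 was the highest. SMAD3, which carries TGF-beta signals to the nucleus, stood at -7.85, -8.39 and -8.42 in the knockout, against -3.45, -3.59 and -3.69 in wild type, at least 8.10-fold lower. YAP1, the coactivator of the Hippo pathway, and DACH1, a nuclear corepressor, had bounds of 5.55 and 3.99.

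A gene of the interferon regulatory factor family itself was also in the set. The RefSeq table names it IRF9 and gives IRF10 as a synonym. Chicken IRF10 is known as a separate member of the family, so which gene the probe measures is not settled here, and IRF9 stands below for the table's name. It stood at -6.74, -6.35 and -6.41 in the knockout, against -5.19, -5.13 and -5.40 in wild type, at least 2.39-fold lower. Both groups were dim, and the knockout signal lay over the floor on 2 arrays. PPARA, a nuclear receptor for fatty acids, and HELB, a DNA helicase, had bounds of 2.75 and 2.14.

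Adhesion, matrix and surface proteins counted 9 genes, with a median bound of 4.94. MANSC1, a predicted membrane protein, stood at -8.82, -8.49 and -8.51 in the knockout, against -1.76, -1.70 and -1.80 in wild type, at least 28.6-fold lower. ITGA9, an integrin alpha subunit, stood at -8.92, -8.57 and -8.65 in the knockout, against -2.40, -2.29 and -2.38 in wild type, at least 18.9-fold lower. JAM2, a junctional adhesion molecule, stood at -8.86, -8.66 and -8.57 in the knockout, against -2.32, -2.35 and -2.40 in wild type, also at least 18.9-fold lower. In each of these the knockout arrays sat at background and the wild-type arrays lay close together.

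MATN3, a cartilage matrix protein, and CMTM8, a tetraspanning membrane protein, had bounds of 8.07 and 4.94. CRTAM, an adhesion receptor of activated lymphocytes, had a bound of 3.38, and ITGB5, an integrin beta subunit, a bound of 2.43. ALCAM, the ligand of CD6, had a bound of 1.75. SNTB1, an adaptor of the dystrophin complex, stood at -9.06, -8.88 and -8.81 in the knockout, against -5.46, -4.50 and -5.84 in wild type, at least 2.52-fold lower. Its wild-type SD of 0.69 was the largest of the 49 genes, whose median SD was 0.098.

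Genes known from excitable and sensory cells numbered 9, with a median bound of 9.93. FAM26E, also called CALHM5, belongs to the calcium homeostasis modulator family. It stood at -9.06, -8.86 and -8.81 in the knockout, against -1.12, -1.03 and -1.08 in wild type, at least 45.9-fold lower. BEAN1, which binds the ubiquitin ligase NEDD4, stood at -7.87, -8.78 and -8.73 in the knockout, against -2.03, -1.95 and -2.02 in wild type, at least 24.2-fold lower. Knockout replicate 1 was the highest of its group for BEAN1.

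SYT1, the calcium sensor of synaptic vesicle release, stood at -8.69, -8.44 and -8.33 in the knockout, against -2.50, -2.67 and -2.63 in wild type, at least 16.0-fold lower. OPN2SW, a short-wavelength cone opsin, had a bound of 14.7. CACNA2D1, an auxiliary subunit of voltage-gated calcium channels, had a bound of 9.93. SCN1A, a sodium channel, and FGF12, which binds sodium channels inside the cell, had bounds of 3.57 and 5.73. The peptide hormone CCK and the synapse organiser CBLN2 had bounds of 3.57 and 2.18.

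Vesicle and cytoskeleton genes were 3, with a median bound of 2.60. SCOC, a short coiled-coil protein of the Golgi, stood at -8.66, -8.31 and -8.30 in the knockout, against -1.57, -1.41 and -1.52 in wild type, at least 34.2-fold lower. MAP7, which binds microtubules, had a bound of 2.60, and STX17, a SNARE of autophagosome fusion, a bound of 1.65. SCOC was thus far above the floor in wild type, while STX17 was close to it.

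**Figure D2:**
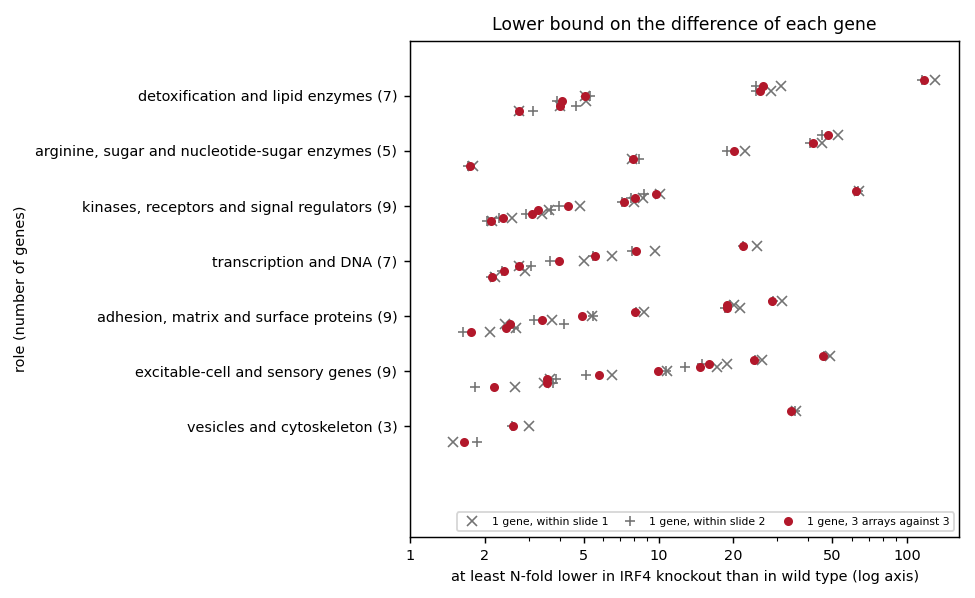
Lower bound on the fold difference of each of the 49 genes (log horizontal axis, at least N-fold lower in the knockout), by role, from 3 knockout against 3 wild-type arrays (filled points) and from the knockout and wild-type arrays that shared slide 1 or slide 2 (crosses and plus signs). Every role but the kinases, the transcription genes and the vesicle genes had at least 3 genes with bounds of 10 or more, and within slide 2 the SNTB1 bound was 4.18, against 2.52 over all arrays.

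The 6 arrays were spread over 4 slides, and 2 of these held both groups. Within these slides every bound stayed above 1, the lowest being 1.48. The choice of genes by detection on these same arrays largely fixes this. The MGST1 bound was 130 within slide 1 and 115 within slide 2. Only for SNTB1, in slide 2, did a within-slide bound differ from the pooled one by over 1.5 times, at 4.18 against 2.52.

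A weaker scanner call, positive and significant against the local background, separated the knockout signals further. By this call 22 of the 49 genes had no signal on any knockout array, 13 had one on 1 or 2 arrays, and 14 on all 3. The 14 genes were NRK, ASL1, GSTA2, TRIM27.2, LAT2, FGF12, CMTM8, CYP1A2, CCK, CRTAM, RHOC, HBEGF, IRF9 and SPRED1. For these, "not detected" means under the stricter limit, with signal over the local background on every knockout array. The probe's own knockout signal passed the floor on at least 1 array for 4 genes, NRK, IRF9, CMTM8 and HBEGF.

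Other probes of the same genes were read from the same RNA. Such probes existed for 27 of the 49 genes, 41 in all, and 23 of them (17 genes) were also detected on all wild-type and no knockout arrays. The chosen probe was the brightest tested one of its gene. That the other probes were not detected in the knockout is therefore largely fixed by the choice, and their number is not read as support. Whether probes of a gene overlap in sequence was not checked. The second MGST1 probe stood at -8.66, -8.41 and -8.30 in the knockout, against -0.32, -0.34 and -0.34 in wild type, at least 76.8-fold lower. Further probes gave bounds of 36.0 for ASL1, 22.4 and 26.3 for SCOC, 20.9 for GSTA2, and 17.4, 6.57 and 6.38 for SYT1. Probes of a gene that were dimmer in wild type had smaller bounds, as the floor dictates.

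NRK had a probe that went past the limit in the knockout. It stood at -6.46, -6.86 and -6.49 in the knockout, with 1 array detected, against -0.89, -0.74 and -0.74 in wild type. The level was low in the knockout on this probe too, and a further NRK probe was detected in wild type alone, at least 27.3-fold lower.

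Another 12 probes, of 11 genes, were detected on no array and so give no measured difference between the groups. They were probes of CACNA2D1, EPHB2, CYP1A2, CCK, PPARA, MAP7, SNTB1, ITGB5, CBLN2, HELB and ALCAM. These probes did not detect the gene in wild type, where the chosen probe did. For CYP1A2, CCK, PPARA, SNTB1, ITGB5, CBLN2, HELB and ALCAM no other probe was detected on all wild-type arrays. One ALCAM probe stood at -8.81, -8.57 and -8.56 in the knockout, against -8.85, -8.90 and -8.02 in wild type. For ITGB5 it was -8.21, -8.35 and -7.52 in the knockout, against -7.59, -8.21 and -8.07 in wild type. The groups overlap on these probes. On the probes of PPARA, MAP7, CBLN2 and CCK and on an SNTB1 probe, every knockout array lay below every wild-type array. On the rest of the 12 the groups overlapped. How common such a separation is among all probes detected on no array was not counted, so nothing is read from it. The chosen probes of ALCAM and ITGB5 did not overlap, which the choice of genes largely fixes.

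On 4 probes, of CYP1A1, CRTAM, PPARA and ALCAM, some wild-type arrays were detected and no knockout array. The CRTAM probe stood at -8.94, -7.36 and -8.70 in the knockout, against -7.27, -8.09 and -4.23 in wild type, and wild type replicate 3 alone was detected. The same replicate alone was detected on an ALCAM probe, at -4.61, against -9.16 and -8.26 on the other wild-type arrays. The CRTAM and ALCAM probes therefore rest on 1 array, while the CYP1A1 and PPARA probes were each detected on 2 wild-type arrays.

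**Figure D3:**
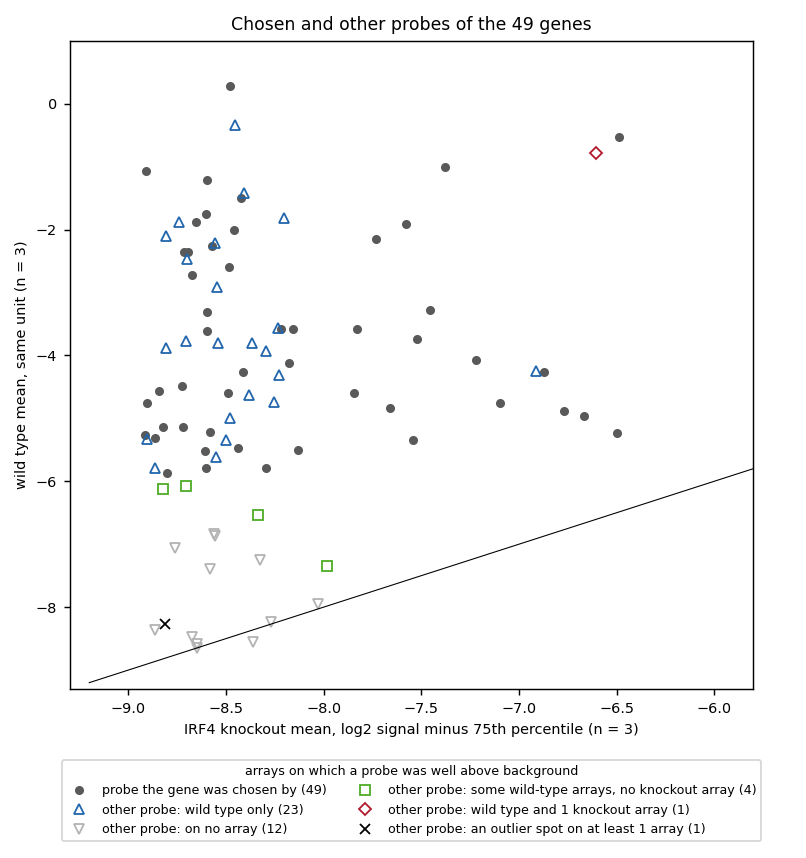
Knockout mean (horizontal axis) against wild-type mean (vertical axis) of the chosen and the other probes of the 49 genes, as log2 processed signal minus the array's 75th percentile, n = 3 arrays each except for an ALCAM probe with an outlier spot. All 49 chosen probes lie above the line of equal means, and the 12 probes detected on no array run from 1.73 above it (PPARA, a difference of -1.73) to slightly below it (HELB, a difference of 0.19).

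The genes just inside the rule were those with the lowest wild-type means. STX17 averaged -5.87 in wild type, CHIA and ALCAM -5.79 each, MRAS -5.52 and HELB -5.50. Just outside were 8 genes detected on all wild-type arrays and on 1 knockout array. The 5 with the largest differences of means are given here, and the smallest difference of the 8 was that of AGR3, at -0.90. DFNA5, known for its part in pyroptosis and inherited deafness, stood at -5.38, -8.71 and -8.61 in the knockout, against 1.06, 1.00 and 1.00 in wild type. AHR1A, an aryl hydrocarbon receptor, stood at -7.49, -6.71 and -4.31 in the knockout, against -2.58, -2.55 and -2.68 in wild type.

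The single detected knockout array was replicate 1 for DFNA5 and replicate 3 for AHR1A, and neither gene's groups overlapped. CDKN2B, a cell cycle inhibitor, stood at -3.08, -8.86 and -7.83 in the knockout, against -4.93, -4.58 and -4.71 in wild type, so here knockout replicate 1 lay above wild type. GPX3, a secreted glutathione peroxidase, stood at -7.34, -7.87 and -6.27 in the knockout, against -4.66, -4.53 and -3.72 in wild type. TNNC1, a troponin, stood at -7.72, -7.35 and -6.49 in the knockout, against -5.18, -5.35 and -5.35 in wild type.

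A further 25 genes were detected on 2 wild-type arrays and no knockout array. The 5 with the largest differences of means were JAG1, EPDR1, CA2, MBP and STOM. Their wild-type means lay between -6.24 and -5.77, and they have no measured level in the knockout. All 25 genes, these 5 among them, were missed on wild type replicate 3, whose floor of -6.04 was the highest of the arrays. JAG1, MBP and STOM lay above that floor on this array, at -5.98, -6.01 and -5.97, and were still not called. The cause was not tested. Others of the 25 hardly differed in their own signal, such as MEPE at -0.43, OC3 at -0.24 and VCL at 0.06. Another 4 genes, ACTA2, CDH1, CNKSR3 and FLVCR2, had an outlier spot on knockout replicate 1 that was itself well above background, and did not meet the rule.

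The 49 genes were not gathered in a single place. By the RefSeq order 48 of them could be placed, on 19 chromosomes. The chromosome that carries MGST1 held 10 of them among 543 tested named genes (1.84%), and the chromosome that carries MAP3K20 held 4 of 123 (3.25%). Over all chromosomes it was 48 of 3830. On the chromosomes that held any, the share ran from 0.61% to 4%, and several chromosomes held none. Nothing is read from these shares. The chromosomes that carry ITGA9, FAM26E and FGF12 held 6, 5 and 1 of the 49. Median log2 differences of the other tested named genes on these were -0.42, -0.38 and -0.65. On the other chromosomes that held any of the 49, this median lay between 0.06 and 0.16. Whether this bears on the 49 genes was not tested. The nearest tested genes on either side that were not themselves among the 49 numbered 91, and 88 of these were detected on all 6 arrays. Of the 91, 34 were higher and 31 lower in the knockout by limma, beside the 39.9% higher and 29.1% lower among all features. Their median log2 difference was 0.06, against 0.05 for all tested named genes.

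The neighbours of the 5 genes with the largest bounds differed by 0.54 or less on the log2 scale, where they were not among the 49 themselves. They are the nearest tested genes and not the adjacent ones, with 1 to 19 other genes in between. DERA, with 2 genes between, and RECQL, with 19 between, flank MGST1 and were both 0.20 higher on the log2 scale in the knockout (SE 0.04 and 0.03, limma adjusted p = 0.0072 and 0.0026). COMMD5 and VMA21, with 5 and 6 genes between them and NRK, differed by 0.11 ± 0.04 and -0.16 ± 0.05. KPNA5, with 5 genes between it and FAM26E, fell by 0.54 (SE 0.05), while HDAC2, with 17 genes between on the other side, was at 0.08 ± 0.07 and did not pass the threshold (limma adjusted p = 0.33). KCTD7, with 1 gene between it and ASL1, was at -0.06 ± 0.05 (limma adjusted p = 0.29). CDCA4 and HSPA2, with 5 and 11 genes between them and NUDT14, were at -0.16 ± 0.05 and -0.04 ± 0.05, the second of them not past the threshold (limma adjusted p = 0.47). Of the 88 detected on all arrays, the widest differences, named after their values were seen, were those of TRIM39.2, adjacent to TRIM27.2, at -2.66 and of PPP1R19L, with 1 gene between it and MAP3K20, at 3.32. Among the other adjacent genes the widest were CMTM7, beside CMTM8, at -1.87, SMAD6, beside SMAD3, at 1.21 and PTGS2, beside PLA2G4A, at -1.11.

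**Figure D4:**
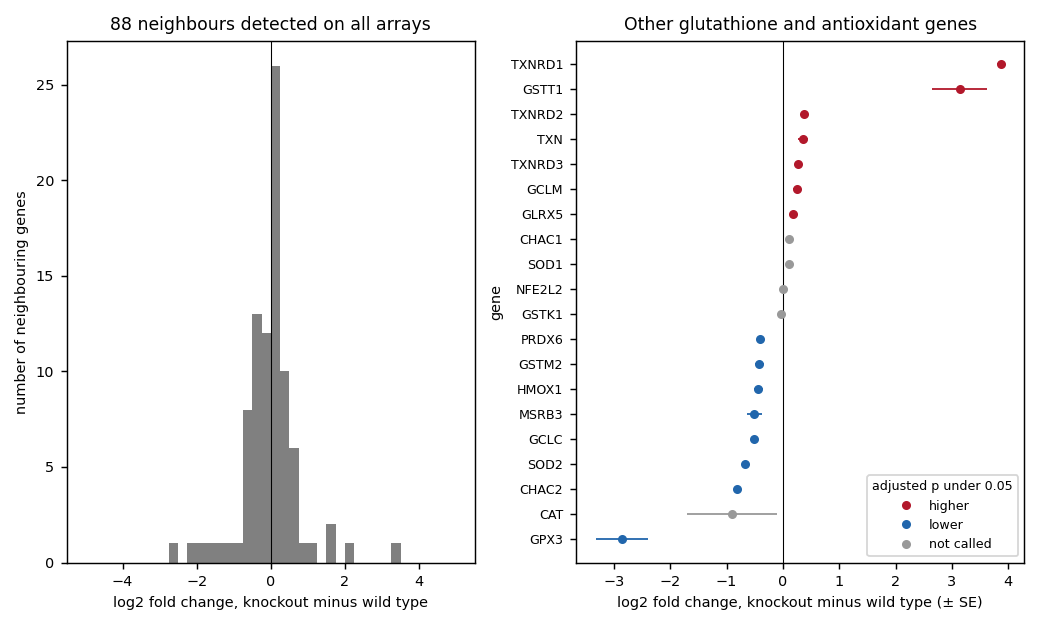
Left, log2 difference, knockout minus wild type, of the 88 nearest tested genes on either side of the 49 genes that were detected on all 6 arrays; right, the same with its standard error for 20 other glutathione and antioxidant genes, coloured by limma's call at an adjusted p under 0.05. The neighbours spread around 0, from -2.66 to 3.32, and the glutathione genes lie on both sides of 0, with TXNRD1 at 3.86 on the right and GPX3, detected on 1 of 3 knockout arrays, on the left.

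The pathways of MGST1, GSTA2, PLA2G4A and NUDT14 were followed in the genes outside the set. Of 20 tested glutathione and antioxidant genes beside MGST1 and GSTA2, 7 rose, 8 fell and 5 did not pass the threshold, beside the 39.9% higher and 29.1% lower among all features. The median log2 difference was -0.01, against 0.08 for all features. TXNRD1, the cytosolic thioredoxin reductase, stood at 2.48, 2.58 and 2.50 in the knockout, against -1.37, -1.24 and -1.42 in wild type. It rose by 3.86 ± 0.06 (SE), or 14.6-fold (limma adjusted p = 1.7e-07).

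GSTT1, a glutathione transferase of the theta class, stood at -2.01, -1.86 and -1.91 in the knockout, against -5.85, -5.43 and -3.91 in wild type, and rose by 3.13 ± 0.48 (SE, limma adjusted p = 0.0015). Wild type replicate 3 was the highest of its group, and without it the difference was 3.71. GPX3 was -2.86 ± 0.46 (SE, limma adjusted p = 0.0018) and detected on 1 of 3 knockout arrays, and with normexp it was -1.19. CHAC2, which breaks down glutathione, fell by 0.81 (SE 0.04, limma adjusted p = 6.7e-06). SOD2, the mitochondrial superoxide dismutase, fell by 0.68 (SE 0.05). The list thus held genes that moved in both directions.

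Of 9 eicosanoid and phospholipase genes beside PLA2G4A, 3 rose, 2 fell and 4 did not pass, no larger a share called than the 68.9% of all features, and the median was 0.09. ANXA2, a phospholipid-binding annexin, fell by 2.44 (SE 0.07, limma adjusted p = 1.1e-06). PTGS2, the inducible cyclooxygenase, fell by 1.11 (SE 0.12, limma adjusted p = 0.00025), and with normexp by 0.62. PTGS2 also lies next to PLA2G4A in the RefSeq gene order, with 0 genes between them, and the part of its position was not tested. PTGDS, a prostaglandin D synthase, rose by 0.43 ± 0.08 and ABHD12, a lipase, by 0.31 ± 0.04. Of 4 NUDIX genes beside NUDT14, NUDT16L1 rose by 0.25 ± 0.04 (limma adjusted p = 0.0015) and the other 3 did not pass.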

How the data were processed

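Total RNA of 3 IRF4 knockout and 3 wild-type DT40 cultures was labelled by a one-colour Cy3 kit, per the labels' protocols; a separate dye label reads biotin. Per the file headers, the authors read the arrays with Feature Extraction 10.7.1.1, on a design annotated to galGal3. The deposited intensity values used were processed green signals, background-subtracted on a linear scale, with detection and outlier flags deposited as codes of 0 and 1. The authors' processed table holds linear intensity values brought to a common distribution (median 225.7 on each array) by a method the sources do not state. limma and R 2.12.0 appear in the submitters' processing notes.

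Here the deposited intensities were put on the log2 scale and centred on the 75th percentile of their array. Control spots and outliers were dropped, and repeated spots of a probe averaged. A feature was tested if well above background on all 3 arrays of a group, with limma 3.58.1 in R 4.3.3 (lmFit, eBayes, two-sided, Benjamini-Hochberg over 19802 features, threshold 0.05). The fit was tested on simulated data. Accessions of 10691 of 43603 probes (24.5%) matched a name in a RefSeq table of GRCg7b; its assembly differs from the array's, so it served for names and gene order and no coordinates are printed. Sequences were not used here.

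The 49 genes, the pathway and marker lists and the alternatives were chosen with earlier results of these data known. The text names all 49 genes and gives every array for the 12 largest bounds and for some genes of each role. Inside the rule it names the 5 genes with the lowest wild-type means. Just outside, it gives for each kind the 5 genes with the largest differences of means. Also named are the called list genes measured in both groups with the widest differences (up to 4 a list). The neighbours of the 5 largest bounds are named, with some other neighbours chosen after their values were seen. BLNK among the B cell markers matched SH2D6 through a synonym, and ALAS2 among the erythroid markers matched ALAS1. Alternatives were other scalings, normexp (on the median signal, offset 50), the authors' values, no filter, other detection rules, slide and replicate blocks, and leaving out each array. The number of arrays limits the precision.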

Additional observations from a re-analysis of the deposited data

How the results depend on the processing

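The set changed with the rule for detection. Counting a gene if any of its probes met the rule gave 84 genes, and asking it of every probe gave 35. With the weaker positive-and-significant call 42 genes met the rule, of which 22 were among the 49. Ignoring an array with an outlier spot, chosen after seeing the data, gave 53. Leaving out 1 array gave 49 to 72 genes, with 72 reached without wild type replicate 3. The 49 were among them each time, which the rule largely fixes, since leaving out an array only loosens it. The median bound of 5.55 was 2.45 with normexp and 4.48 with the floor at the 1st percentile of detected probes; leaving out 1 array gave 5.29 to 5.74. No bound was 1 or less in any of the 11 settings tried, which the choice of genes by detection largely fixes. Of the list counts, the number of glutathione and antioxidant genes that rose was 4 with slide as a fixed block, and 1 NUDIX gene fell in 4 settings, though not the same gene, as seen after the values were known. It was NUDT19 with the median of each array subtracted and without wild type replicate 1, and NUDT1 with quantile scaling and the authors' processed values. In the values reported above limma called 0 NUDIX genes lower (1 at an unadjusted p under 0.05), and leaving out 1 array gave 0 to 1. Deviations of same-numbered knockout and wild-type arrays correlated at r between -0.026 and -0.012, so the numbers were not taken to pair samples. With a replicate block limma called 7465 features higher and 5501 lower in the knockout. With slide as a fixed block 5828 were higher and 4635 lower, and with the median of each array subtracted 6400 and 6861, so that more features were lower than higher, the opposite of the balance reported above. The cause of these changes was not tested. Genes whose wild-type signal lies close to the floor, such as STX17, CHIA and ALCAM, could show only a small bound.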
